A study of Homo sapiens with 12 samples.

Results

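RNA levels of 9 genes linked to amyotrophic lateral sclerosis (ALS) were read from RNA-seq of human neurons with *SMN* knockdown (*SMN*-KD) or a control shRNA. They were *TARDBP*, *MATR3*, *SOD1*, *C9orf72*, *VCP*, *OPTN*, *TBK1*, *UBQLN2* and *SQSTM1*, and each was found by its gene symbol in both deposited tables. These 9 genes stood among 16406 genes in the motor neuron table and 19016 genes in the glutamatergic neuron table, and 16093 gene identifiers were in both. This match used no measured value.

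The study made 12 libraries of total RNA in 4 groups of 3. Motor neurons (iMNs) came from 1 human iPSC line, NINDS (NH50286), that carries a Td-Tomato reporter under the HB9 promoter, and were collected by FACS. Glutamatergic neurons, which the labels call cortical, came from 1 human ES cell line, H1, in which doxycycline induces the transcription factor NGN2 (i3Ns). In each neuron type, 3 libraries carried a lentiviral shRNA against *SMN1/2* (*SMN*-KD) and 3 carried a scrambled shRNA (SCR), so both groups held an shRNA vector. Neuron type, donor line and differentiation protocol went together and cannot be told apart.

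The value used here was the mean normalized count, deposited once per gene and neuron type. It is a mean over 6 libraries, SCR and *SMN*-KD together. Values of single libraries were not analysed here, and the columns of the authors' own comparison of *SMN*-KD with SCR were not used. The effect of *SMN*-KD on these genes was therefore not tested here, and the fall of *SMN* itself in the knockdown libraries could not be checked from a mean over both groups. Each level below belongs to the mixture of both groups. It has no spread over replicates, so neighbours in an order of levels could not be told apart beyond error, and no p-value is given. Total counts per library were not known, and the summed means of a table were 43320000 in iMNs and 45040000 in i3Ns. In bulk RNA, fewer cells of a type and less RNA per cell cannot be told apart.

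ALS is a degeneration of motor neurons, and the genes behind its inherited forms fall into a few cellular roles. TDP-43, the product of *TARDBP*, and matrin 3 bind RNA in the nucleus and act in splicing. VCP, UBQLN2, OPTN, SQSTM1 and TBK1 handle ubiquitin-tagged proteins: VCP pulls them out of complexes and membranes, UBQLN2 carries them to the proteasome, OPTN and SQSTM1 link them to growing autophagosomes, and the kinase TBK1 phosphorylates both of these receptors. C9orf72 forms a complex with SMCR8 and WDR41 that acts in membrane traffic and autophagy, and SOD1 converts superoxide in the cytosol. SMN, the protein depleted in this study, assembles the small nuclear ribonucleoproteins of the spliceosome, and its loss causes another motor neuron disease, spinal muscular atrophy.

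Neuronal RNAs were abundant in both tables, while markers of the neuron subtype went against the labels in part. Of 5 pan-neuronal genes, 4 were higher in the iMN table, 2 of them by at least 2-fold, and *SNAP25* was the farthest, with means of 18426.4 in iMNs and 4847.2 in i3Ns. The neuronal tubulin *TUBB3* was the highest of them and the only one higher in i3Ns, with levels of 2445 in iMNs and 2934 in i3Ns (per transcript length, scaled to a sum of 1000000 over the table). Of 8 motor neuron markers, 5 were at least 2-fold higher in the i3N table and 1, the choline transporter *SLC5A7*, was at least 2-fold higher in the iMN table. *ISL2* was the farthest of them, with a mean normalized count of 70.6 in iMNs and 3558.5 in i3Ns. *MNX1*, which encodes HB9 and is named here after its values were seen, had means of 429.7 and 2278.9. Of 4 glutamatergic markers, 2 were at least 2-fold higher in i3Ns and 2 at least 2-fold higher in iMNs. The vesicular glutamate transporter *SLC17A7* had a mean of 50.1 in iMNs and 6489.7 in i3Ns, and *CAMK2A*, a kinase subunit of excitatory synapses, had means of 506.0 and 14.2. Of 6 cortical markers, 5 were in both tables, and 3 of these were at least 2-fold higher in i3Ns and 0 in iMNs. The factor *TBR1* was the farthest of them, with means of 10.2 and 1800.9. *CUX1* went the other way, with means of 6661.6 and 5354.1. The 3 GABAergic markers were split: *GAD1* had means of 414.4 and 10.3, *GAD2* of 27.0 and 4.92, and *SLC32A1* of 39.3 and 155.2. Of 7 glial markers of astrocytes and oligodendrocytes, 2 were in the iMN table and 4 in the i3N table. *MBP* was the highest of them in both, with means of 329.2 in iMNs and 949.2 in i3Ns. *SLC1A3* went the other way, with means of 46.2 and 21.1. Of 4 microglial markers, none was in the iMN table and 1 in the i3N table. The tables reach down to different levels, a mean of 7.73 in iMNs and 1.36 in i3Ns, and 2.57% and 15.7% of their genes had a mean under 10, so presence in a table is not comparable between them for low genes. Of 5 markers of dividing cells, 3 were in the iMN table and 5 in the i3N table. Their summed level was 6.14 in iMNs and 19.8 in i3Ns, of which *CCNB1* alone gave 5.70 and 8.77. *MKI67* was the farthest of them, with means of 28.3 and 521.7. Of 5 markers of pluripotent cells, 1 was in the iMN table and 5 in the i3N table. Their summed level was 3.86 and 81.8, of which *LIN28A* alone gave 3.86 and 75.8. The part of these differences in the values of the ALS genes was not tested, and iMN and i3N below are the names of the tables.

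Per transcript length, all 9 ALS genes lay above the median gene of their table, which had a level of 20.5 in iMNs and 15.0 in i3Ns, and *TBK1* lay only just above it in iMNs. By mean normalized count, *TBK1* was above 53.5% of all genes in iMNs and 65.6% in i3Ns, but above only 40.2% and 49.0% of the genes with a mean of at least 100, and so below their median. Their own levels ran from 24.2 for *TBK1* to 363.2 for *SOD1* in iMNs, a 15.0-fold range, and from 33.2 for *TBK1* to 467.8 for *MATR3* in i3Ns, a 14.1-fold range. Together the 9 genes held 0.174% of all normalized counts in each table. The order from high to low was *SOD1*, *MATR3*, *VCP*, *SQSTM1*, *UBQLN2*, *OPTN*, *TARDBP*, *C9orf72* and *TBK1* in iMNs. In i3Ns it was *MATR3*, *SOD1*, *VCP*, *SQSTM1*, *TARDBP*, *UBQLN2*, *OPTN*, *C9orf72* and *TBK1*. *SOD1*, *MATR3* and *VCP* were thus the 3 highest and *C9orf72* and *TBK1* the 2 lowest in both.

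**Figure D1:**
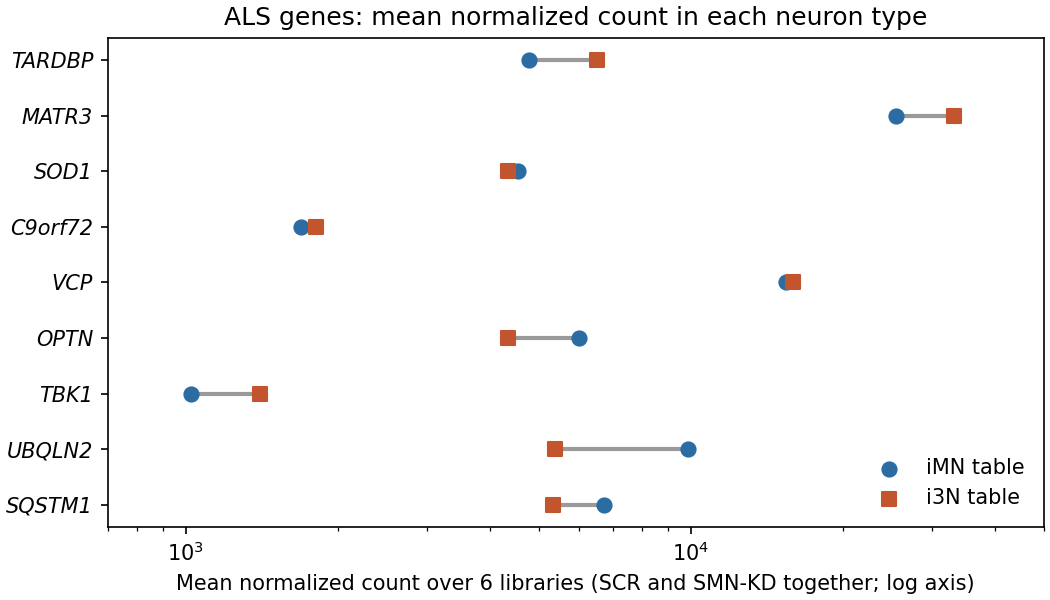
Mean normalized count of each ALS gene (x axis, log scale) in the iMN table (circles) and the i3N table (squares), each over 6 libraries with SCR and *SMN*-KD together. The means ran from 1024.6 for *TBK1* in iMNs to 33191.9 for *MATR3* in i3Ns, the longest line is that of *UBQLN2*, and no error bars can be drawn because each point is 1 deposited mean.

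Between the neuron types, none of the ALS genes differed by 2-fold or more. The tables were normalized separately, so the log2 ratios of i3N over iMN were centred on their median over the 12071 genes whose means reached 100 in both tables, which took 0.10 off each ratio. Of 15170 genes with a mean of at least 10 in both tables, 9.49% were at least 2-fold higher in i3Ns and 12.4% at least 2-fold higher in iMNs, and 0 of the 9 ALS genes were in either set. That count was close to what genes of such levels showed in general: of 6732 genes whose means lay within the range of the ALS genes in both tables, 91.4% were also within 2-fold. The median size of the log2 ratio was 0.35 for the ALS genes, 0.32 for genes in that range and 0.45 for all 15170. Of the 9 genes, 3 were higher in i3Ns and 6 in iMNs, with a median log2 ratio of -0.05, and without scaling 5 were higher in i3Ns and 4 in iMNs, because *VCP* and *C9orf72* lie near 0 and change sign.

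**Figure D2:**
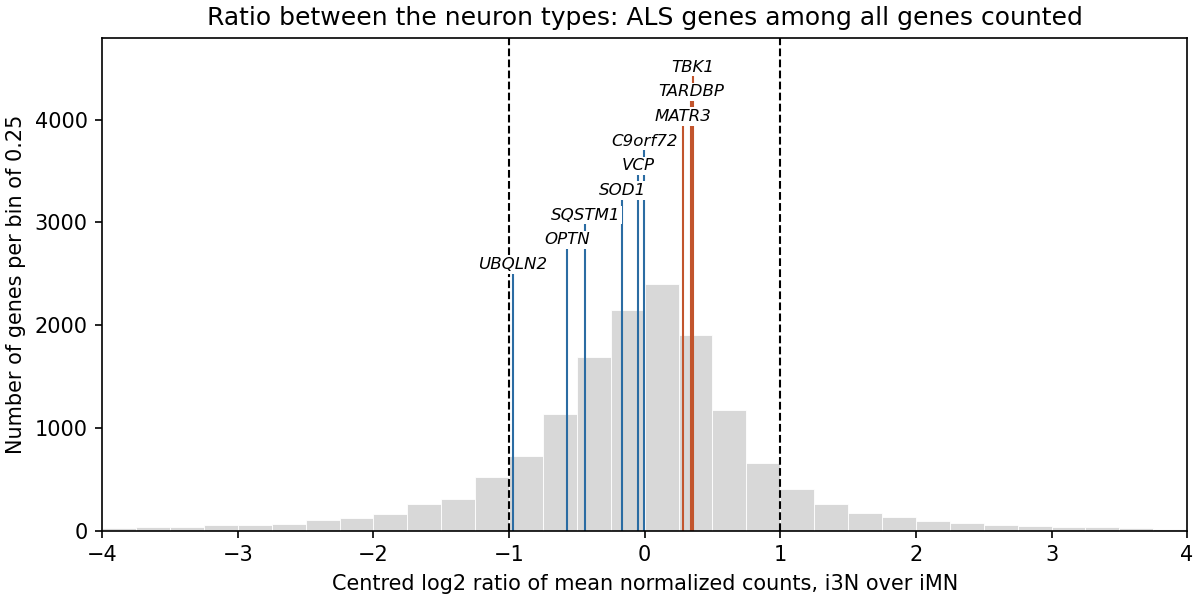
Number of genes (y axis) per bin of 0.25 of the centred log2 ratio of mean normalized counts, i3N over iMN (x axis), for the 14982 of 15170 counted genes that lie within 4 of 0. Coloured lines mark the 9 ALS genes (blue, higher in iMNs; orange, higher in i3Ns) and dashed lines mark 2-fold: *UBQLN2*, at -0.97, is the ALS gene nearest to a dashed line, and the other 8 lie between -0.57 and 0.36.

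*MATR3* and *TARDBP*, the RNA-binding members, were both higher in i3Ns. *MATR3* (ENSG00000015479) encodes a nuclear matrix protein that binds RNA and represses exons, and its mean normalized count was 25497.2 in iMNs and 33191.9 in i3Ns. These values were above those of 98.9% and 99.5% of the genes of the tables, and the centred log2 ratio was 0.28. *TARDBP* (ENSG00000120948) had means of 4787.9 and 6517.6 and a log2 ratio of 0.35. Per length, *MATR3* stood 4.40-fold above *TARDBP* in iMNs and 4.20-fold in i3Ns, and 2.60-fold and 2.49-fold when coding length replaced transcript length. These log2 ratios were above those of only 67.8% of all genes counted for *MATR3* and 71.4% for *TARDBP*, and the differences were not tested. Of 9 other listed RNA-binding proteins of the nucleus, 8 were higher in i3Ns (9 without scaling or with equal sums). Their median log2 ratio was 0.36, beside a median of 0 over all genes counted. *HNRNPA1*, which packages nascent transcripts, was the highest of them, with levels of 377.9 and 518.3 per length. *PTBP1*, a splicing repressor that is normally replaced by *PTBP2* in neurons, was the lowest and the only one past 2-fold, with a log2 ratio of 1.74.

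The symbol *MATR3* stood on 2 identifiers in both tables, and reads may have been split between them, so its values are uncertain. The second, ENSG00000280987, is annotated in GENCODE 44 as a readthrough gene that begins upstream and shares 80.9% of its exonic bases with the main one. On hg38 the main gene covers chr5:139293674-139331677 and the readthrough gene chr5:139273752-139331671, both on the plus strand. The mean of the readthrough identifier was 2412.6 in iMNs and 4044.0 in i3Ns, or 8.64% and 10.9% of the sum of both. Its centred log2 ratio was 0.65, while that of the sum was 0.32. *MATR3* thus stayed higher in i3Ns by either count.

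The starts of these identifiers differ, and RefSeq has a promoter near each (build GRCh38.p14, 250 bases before to 50 bases after a start). They are shown with the promoter of *TBK1*, since *MATR3* was the highest and *TBK1* the lowest of the ALS genes per length when both tables are averaged. Capitals mark each CG dinucleotide.
MATR3, upstream start, chr5:139273851-139274150, plus strand: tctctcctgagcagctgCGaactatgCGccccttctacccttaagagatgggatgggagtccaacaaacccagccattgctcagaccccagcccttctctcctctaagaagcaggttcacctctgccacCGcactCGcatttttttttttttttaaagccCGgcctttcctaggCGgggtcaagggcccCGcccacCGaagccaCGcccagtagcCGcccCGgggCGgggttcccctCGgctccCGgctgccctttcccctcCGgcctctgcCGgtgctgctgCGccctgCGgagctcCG
MATR3, main start, chr5:139293490-139293789, plus strand: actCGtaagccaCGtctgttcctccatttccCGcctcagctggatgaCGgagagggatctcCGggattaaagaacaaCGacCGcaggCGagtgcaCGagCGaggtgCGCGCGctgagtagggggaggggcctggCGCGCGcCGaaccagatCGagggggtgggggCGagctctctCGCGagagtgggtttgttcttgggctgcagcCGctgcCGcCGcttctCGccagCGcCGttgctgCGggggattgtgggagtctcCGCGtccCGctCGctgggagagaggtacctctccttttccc
TBK1, chr12:64451870-64452169, plus strand: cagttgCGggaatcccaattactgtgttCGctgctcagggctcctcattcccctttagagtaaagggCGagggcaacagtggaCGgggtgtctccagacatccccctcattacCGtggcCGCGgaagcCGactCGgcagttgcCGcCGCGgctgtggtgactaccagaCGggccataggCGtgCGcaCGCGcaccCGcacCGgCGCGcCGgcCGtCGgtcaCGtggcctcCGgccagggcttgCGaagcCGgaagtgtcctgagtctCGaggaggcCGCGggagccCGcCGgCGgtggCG

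The upstream *MATR3* promoter held 19 CG dinucleotides and a GC share of 63.3%, the main one 32 and 66.0%, and that of *TBK1* 35 and 68.3%. RefSeq promoters were matched for 8 of the 9 ALS genes, taking the start nearest to the 5′ end of the gene model, and *SOD1* had no match. Over these 8, the number of CG dinucleotides ran from 17 in *TARDBP* to 38 in *SQSTM1*, with a median of 28, beside a median of 26 over 11381 promoters of genes in both tables (1 start a gene). The GC share ran from 49.0% in *C9orf72* to 77.0% in *SQSTM1*, and 4 of 8 were above the median of 65.3%. The letters TATAAA, searched on both strands, were in 0 of these 8 windows and in 5.76% of the 11381.

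Of 5 genes whose splicing TDP-43 is known to control, none was past 2-fold between the tables. *STMN2*, a tubulin-binding protein of growing axons, was the highest, with levels of 3046 in iMNs and 3157 in i3Ns and a log2 ratio of -0.05. *POLDIP3* was the lowest, at 81.7 and 104.3. Levels summed over transcripts do not show which exons were used, and splicing was not analysed here.

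*SOD1* (ENSG00000142168), the copper-zinc superoxide dismutase of the cytosol, differed little between the tables. Its mean normalized count was 4547.6 in iMNs and 4346.8 in i3Ns, with a centred log2 ratio of -0.16. It has the shortest transcript of the 9, 895 bases in 5 exons, and while its mean was the third lowest of the 9 in iMNs, its level per length was the highest there, at 363.2, and the second highest in i3Ns, at 347.0. *CCS*, which loads copper into SOD1, was lower per length by 7.98-fold in iMNs and by 12.3-fold in i3Ns, with a log2 ratio of its own of -0.79. The extracellular *SOD3* was only in the i3N table, with a mean of 2.93. Both identifiers of the mitochondrial *SOD2* lay outside the annotation used, and no level per length is given. The main one of these had a mean of 8204.4 in iMNs and 8711.4 in i3Ns.

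*C9orf72* (ENSG00000147894) had the smallest difference of the 9 after centring, with an i3N level 0.998 times that of iMNs. Its mean was 1688.4 in iMNs and 1806.0 in i3Ns, and the centred log2 ratio was -0.0027. That place depended on the centring. Under each of the other 3 scalings the ratio of *VCP* lay nearer to 0. Without scaling the log2 ratio was 0.0971 for *C9orf72* and 0.0489 for *VCP*. The level per length of *C9orf72* was 37.4 and 39.9, between those of its partners. *WDR41* was higher than *C9orf72* by 1.77-fold in iMNs and 1.48-fold in i3Ns. *SMCR8* was lower, and *C9orf72* exceeded it by 1.52-fold and 1.43-fold, or by 1.15-fold and 1.09-fold per coding length. All 3 genes of the complex stood above the median gene of each table.

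*VCP* (ENSG00000165280), a hexameric ATPase that segregates ubiquitinated proteins, was above all 10 of its listed cofactors. Its mean was 15407.0 in iMNs and 15938.6 in i3Ns, above those of 97.6% and 98.0% of genes, and the log2 ratio was -0.05. Per length it had levels of 294.0 and 304.0. The 10 listed cofactors ran from 36.9 to 134.5 in iMNs and from 30.1 to 131.5 in i3Ns. *NSFL1C*, the p47 cofactor of membrane fusion, was the highest and *FAF1* the lowest in both tables. *VCP* exceeded *UFD1* by 5.63-fold in iMNs and 4.59-fold in i3Ns and *NPLOC4* by 4.08-fold and 3.76-fold, where these partners form the heterodimer that binds ubiquitin chains and are named after their values were seen. Per coding length the distance was smaller: *VCP* exceeded *NPLOC4* by 2.63-fold and 2.42-fold, and its level was 184.9 in iMNs and 191.7 in i3Ns beside 133.9 and 131.2 for *NSFL1C*. Of the 10 cofactors, 5 were higher in i3Ns and 5 in iMNs (7 and 3 without scaling), none by 2-fold, and *UBXN6* was the farthest, at -0.63.

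*OPTN* and *SQSTM1*, the autophagy receptors, were both higher in iMNs. *OPTN* (ENSG00000123240) had means of 6002.2 in iMNs and 4335.3 in i3Ns, a log2 ratio of -0.57. *SQSTM1* (ENSG00000161011), which encodes p62, had means of 6722.9 and 5324.3, a log2 ratio of -0.44. Of all genes counted, only 58.6% had a smaller centred ratio in size than *OPTN* and 48.6% than *SQSTM1*. Per length *SQSTM1* exceeded *OPTN* by 1.37-fold in iMNs and 1.50-fold in i3Ns. Of the 3 other listed receptors, none was past 2-fold, and their median log2 ratio was 0.44. *TAX1BP1* was the highest of them, at 99.0 and 106.4 per length with a log2 ratio of 0.0044, and *CALCOCO2* was the lowest and the farthest, with a log2 ratio of 0.70. *NBR1*, which cooperates with p62 and is named after its values were seen, had levels of 45.4 and 66.0, so *SQSTM1* exceeded it by 3.73-fold in iMNs and 2.03-fold in i3Ns. These differences between receptors have no test, since each value is 1 mean.

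OPTN and p62 attach to ATG8 proteins on the autophagosome membrane. Of 5 ATG8 genes, 2 were at least 2-fold higher in iMNs, beside 12.4% of all 15170 genes counted. Both were so under all 4 scalings. *GABARAPL1* was the farthest, with means of 15432.0 in iMNs and 5638.9 in i3Ns and a log2 ratio of -1.55. *MAP1LC3A*, the lowest of the 5 per length in i3Ns, had means of 5957.0 and 2258.1 and a log2 ratio of -1.50. *GABARAP* was the highest in i3Ns, with levels of 394.7 and 432.6 and a log2 ratio of 0.03. The other two genes were within 2-fold.

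*TBK1* (ENSG00000183735) was the lowest of the 9 in both tables and slightly higher in i3Ns. The gene covers chr12:64452090-64502114 on the plus strand of hg38 and has the widest span of the 9, 50025 bases, with 21 exons. Its mean was 1024.6 in iMNs and 1404.4 in i3Ns, above those of 53.5% and 65.6% of genes, and the log2 ratio was 0.36. Its relative *IKBKE*, an inducible kinase best known from immune cells, had means of 24.8 and 38.8, so *TBK1* exceeded it per length by 44.2-fold and 38.9-fold. Of the 3 adaptors that hold TBK1, *TBKBP1* was the highest, at 85.6 and 89.5, above *TBK1* itself. *TANK* had the farthest ratio, 0.98, just inside 2-fold after centring and past it under each of the other 3 scalings.

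*UBQLN2* (ENSG00000188021) differed most between the tables. It encodes a shuttle that binds both ubiquitin chains and the proteasome, and its gene has 1 exon and lies on the X chromosome, chrX:56563627-56567868, plus strand. Its mean was 9866.2 in iMNs and 5390.4 in i3Ns. After centring it was 1.96-fold higher in iMNs, a log2 ratio of -0.97, or -0.87 without scaling. Of all genes counted, 77.2% had a smaller centred ratio in size. Its relative *UBQLN1* lay slightly the other way, with means of 11492.6 and 13465.7 and a log2 ratio of 0.13. *UBQLN1* exceeded *UBQLN2* per length by 1.28-fold in iMNs and 2.74-fold in i3Ns, and by 1.23-fold and 2.65-fold per coding length. This ratio within a table does not depend on how the tables were scaled to each other. *UBQLN4*, named after its values were seen, had a level of 92.4 in iMNs and 92.0 in i3Ns, so it stood below *UBQLN2* in iMNs and level with it in i3Ns, where *UBQLN2* was at 90.8. *UBQLNL* had means of 11.0 and 3.68. How reads were shared between these related transcripts is not known here.

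**Figure D3:**
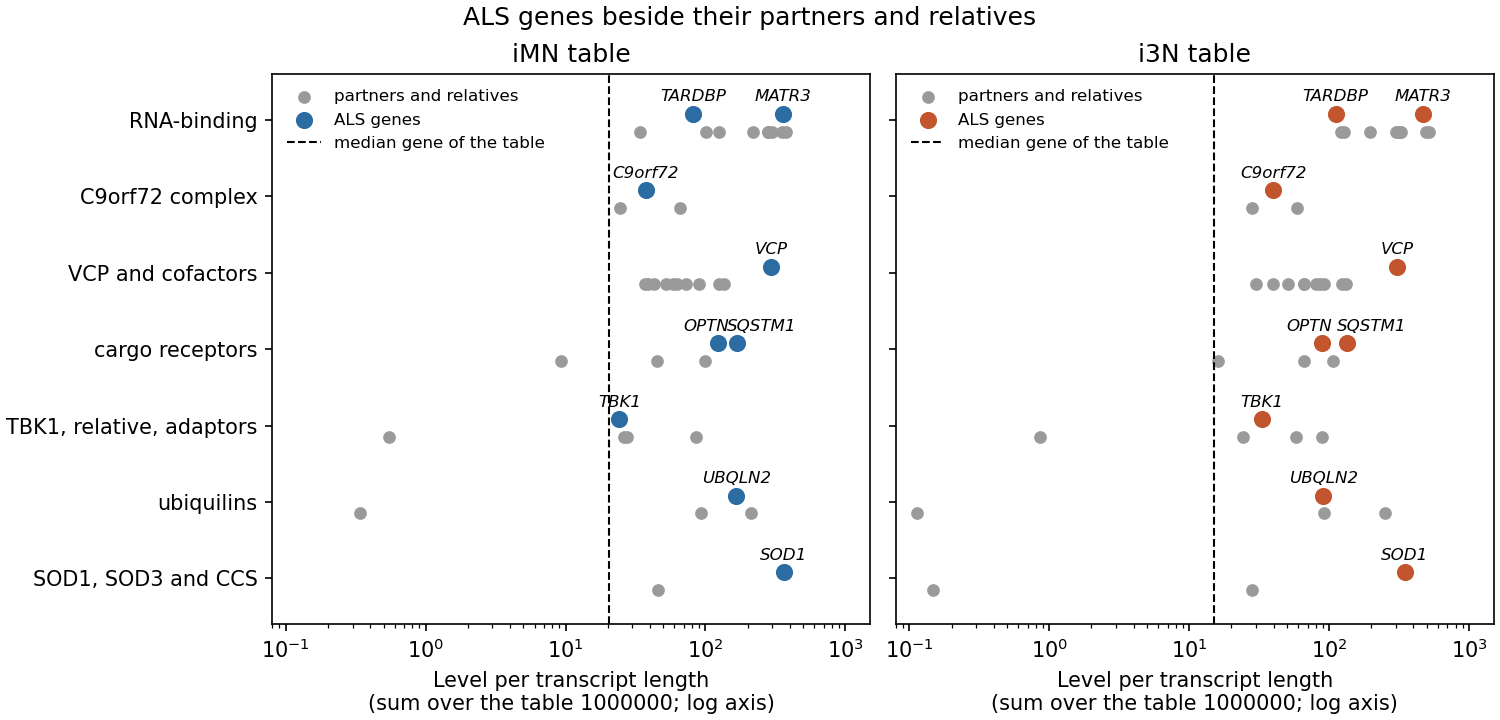
Level per transcript length, scaled to a sum of 1000000 over the table (x axis, log scale), of the ALS genes (large coloured points) and of their listed partners and relatives (grey), by role (y axis), in the iMN table (left) and the i3N table (right), with no point for a gene that has no level there. The dashed line is the median gene, at 20.5 and 15.0: all 9 ALS genes lie to its right, *VCP* lies right of all 10 cofactors in both panels, and *UBQLN2* moves from 166.3 to 90.8.

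The 9 genes had little in common in structure. Their spans ran from 4242 bases for *UBQLN2* to 50025 bases for *TBK1*, their MANE Select transcripts from 895 bases for *SOD1* to 5069 bases for *MATR3*, and their exons from 1 to 21. The coding length ran from 462 to 2541 bases, or 154 to 847 residues. They lie on 7 chromosomes, with *MATR3* and *SQSTM1* both on chromosome 5 and *C9orf72* and *VCP* both on chromosome 9.

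Of 23 other genes linked to ALS, all were in both tables, with a median level per length of 40.7 in iMNs and 35.3 in i3Ns. The medians of the 9 were 166.3 and 111.3. Of the 23, 18 in iMNs and 19 in i3Ns were above the median gene, against 9 of 9. *KIF5A*, a kinesin motor of axonal transport, was the highest, at 514.1 and 578.0. *ERBB4*, a receptor for neuregulins, was the lowest and the farthest, with means of 47.1 in iMNs and 178.4 in i3Ns and a log2 ratio of 1.82. It was the only one at least 2-fold higher in i3Ns, and 1 other gene, the neurofilament gene *NEFH*, named after its values were seen, was at least 2-fold higher in iMNs, at -1.02, though under none of the other 3 scalings.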

How the data were processed

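Total RNA was depleted of ribosomal RNA with RiboErase, and libraries were sequenced on an Illumina NovaSeq with paired-end reads. Per the labels and methods, the authors removed adapters (fastp), estimated transcript counts (Salmon) and compared the groups (DESeq2) separately in each neuron type, and the build named is hg38. Versions, the transcript annotation and the filter on low counts are not given in the sources used here, nor whether counts were corrected for length. Each deposited table holds 1 signal value per gene, the authors' mean normalized count over 6 libraries, beside the log2 fold change, its standard error, the p-value and the adjusted p-value of *SMN*-KD against SCR. These columns of the authors' comparison were not used.

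A count per library had been planned for, with a test of *SMN*-KD against SCR. With 1 mean per gene no test was made, and all values here are descriptions. Whether replicates came from separate cultures is not stated.

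Percentiles are the share of genes in a table with a lower mean. Levels per length are means divided by the length of the MANE Select (otherwise Ensembl canonical) transcript of GENCODE 44 and scaled to a sum of 1000000 over the genes with a length, which leaves out 693 identifiers in iMNs and 878 in i3Ns. Ratios between the tables were taken over genes matched on the Ensembl identifier. Called genes had a centred ratio of at least 2-fold and a mean of at least 10 in both tables. The 9 genes and the gene lists were chosen with earlier results of these data known. From each list, the text names the genes with the highest and the lowest level per length and the farthest ratio, except 1 gene that is not reported here. Promoters are from RefSeq (GRCh38.p14). Alternatives changed the identifiers, the filter, the length and the scaling. The steps were tested on simulated data and run with Python 3.11.15, pandas 2.3.3, NumPy 2.4.6, SciPy 1.17.1 and matplotlib 3.10.9.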

Additional observations from a re-analysis of the deposited data

How the results depend on the processing

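No ALS gene passed 2-fold between the tables under any of the 4 scalings, and 7 of 9 kept the direction of their ratio under all 4. The median log2 ratio of the 9 was 0.0489 without scaling and -0.0063 with equal sums, against -0.0508. Among genes with a mean of at least 10, the median percentile of the 9 was 86.9 in i3Ns, and among genes with a mean of at least 100 it was 86.9 in iMNs and 83.6 in i3Ns, against 89.8 in iMNs and 89.0 in i3Ns over all genes, since fewer low genes were then counted. Per coding length, the median level was 147.8 in iMNs and 117.3 in i3Ns, against 166.3 and 111.3, *MATR3* passed *SOD1* in iMNs, and *C9orf72* and *TBK1* remained the 2 lowest. With a mean of at least 100 in both tables, 732 of 12071 genes were at least 2-fold higher in i3Ns and 1119 in iMNs. With a mean of at least 10, these counts were 1440 and 1886 of 15170. Over all shared genes, with no filter, the counts were 1523 and 2440. No paired analysis was possible because each table holds only a mean over its libraries. For the same reason no replicate was left out, and the planned edgeR test of *SMN*-KD against SCR was not run. Depth per library is unknown, so no counting interval is given.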
